A study of Mus musculus with 6 samples.

Results

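Imprinted genes are transcribed mainly or only from the copy inherited from a single parent, and 45 of them were followed here in cultured mouse germline stem cells moved from complete medium to a pyruvate medium. They are 45 of the 32285 genes in the deposited count table, matched by symbol to 1 Ensembl identifier each, and they lie in 19 imprinted regions. They were chosen by known imprinting, leaving out Igf2, H19, Igf2r and Slc38a4, and no value of theirs served as a threshold. The list was proposed after differences between the same pyruvate and control libraries had been seen, so counts over it are a description of these genes only. From knowledge of mouse somatic tissue, 23 were classed as expressed from the paternal copy and 19 from the maternal copy. For the other 3, Gnas, Inpp5f and Grb10, the expressed copy depends on the transcript or the tissue. Of the 19 maternal genes only 8 are widely imprinted, while 11, among them Ube3a, Blcap, Copg2, Commd1, Trappc9 and Nap1l4, are imprinted in some tissues or stages only, as is the paternally expressed Rasgrf1. The counts are not split by parental copy, so neither the class nor a loss of imprinting can be read from them.

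The control group had 3 libraries from cells in complete medium, and the pyruvate group 3 libraries from cells in the medium that the labels name for 8 mM pyruvate. Both used the DBA-GFP GS line, described as wild-type germline stem cells, which are spermatogonial stem cells kept in culture. The labels give neither the donor's age nor a feeder layer, and they leave unsaid whether replicates came from different cultures. The p-values therefore reflect the spread among these libraries, which may be technical. A glucose medium is also part of the study and was not analysed here.

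An imprint is laid down in the germ line as DNA methylation at a control region, and it sets which parental copy of the neighbouring genes is transcribed in the offspring. In male germ cells the inherited imprints are erased and replaced by the paternal pattern on both chromosomes, so the words paternal and maternal below are labels taken from somatic tissue. Imprinted genes lie in clusters, where a long noncoding RNA or an insulator can act on several protein-coding neighbours. Many of them regulate growth, among them Cdkn1c, Grb10, Dlk1, Plagl1 and Peg3.

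Library totals ran from 20918312 to 26413080 counts, and a floor of 3 counts corresponded to 0.116 to 0.143 CPM. CPM is a count scaled to the size of its library after TMM correction for library composition. Control replicate 2 stood apart, at 36.5 on the first principal component of all tested genes. Pyruvate replicate 1 was also set apart, with the lowest value, -27.2. The remaining libraries had values from -4.64 to 0.81. The position of control replicate 2 bears on the members, because this library held more RNA of genes with long exons. Of the 22 tested members with at least 5 kb of exon, 17 were higher in control replicate 2 than in the mean of controls 1 and 3, with a median log2 ratio of 0.43. Of the 20 shorter members 8 were higher, with a median of -0.086. Over all tested genes these medians were 0.19 and -0.13, and 70.9% and 35.7% were higher. Values without control replicate 2 are therefore given beside the members with the larger differences. Values without pyruvate replicate 1 are given for fewer of them. Germ cell and spermatogonial markers were present as labelled, with 18 of 18 past the filter on low counts and a summed level of 3885 to 4910 CPM. None of them was called with all libraries (7 above and 11 below 0), and 2 were called higher without control replicate 2, where 2.33% of all genes were called higher.

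**Figure D1:**
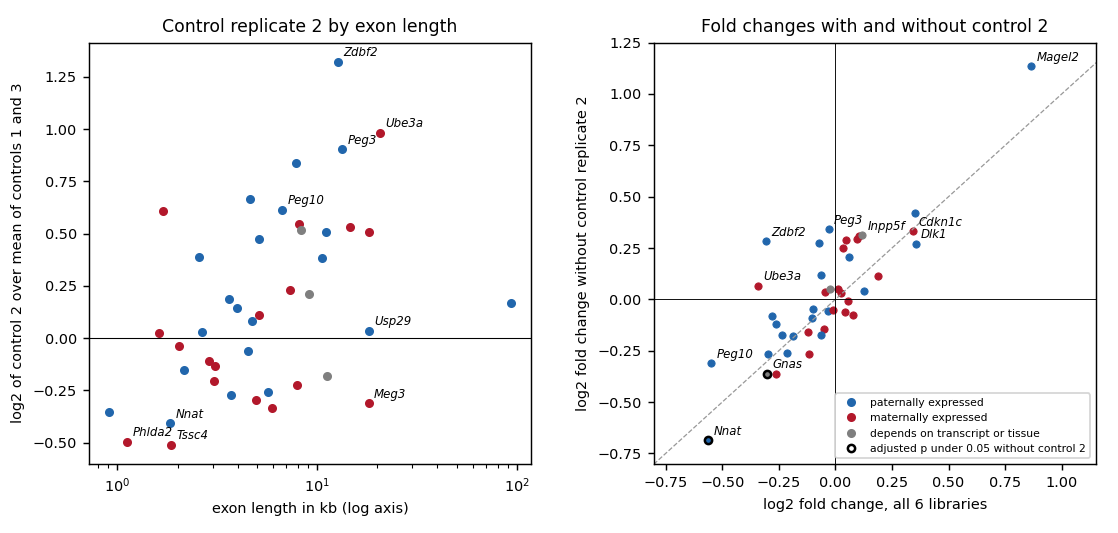
Left, the log2 ratio of control replicate 2 to the mean of controls 1 and 3 for each tested imprinted gene against its exon length in kb (log axis). Right, log2 fold change of pyruvate against control with all 6 libraries (x) and without control replicate 2 (y), where the dashed line marks equal values and black rings mark Nnat and Gnas, the members with adjusted p under 0.05 on the y axis. Zdbf2, Ube3a and Peg3 stand highest on the left and leave the dashed line on the right.

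None of the imprinted genes passed the test in the comparison of pyruvate with complete medium when all libraries were kept. Of 42 members past the filter on low counts, edgeR's quasi-likelihood test called 0 at an adjusted p under 0.05 over 14912 genes. The background was 0.0536% of genes called, 0.0201% higher and 0.0335% lower (3 and 5 genes). DESeq2 also called 0 members, against 317 genes or 2.13%. With scaling by library totals edgeR called 0 members and 14 genes (0.0939%), 8 higher and 6 lower. At an unadjusted p under 0.05 there were 6 members, 3 higher (Dlk1, Cdkn1c and Magel2) and 3 lower (Nnat, Peg10 and Gnas). The background at that level was 14.4% of genes, 7.94% higher and 6.44% lower, so 6 of 42 lay near it. The groups did not overlap in 5 of 42 members, 2 higher (Dlk1 and Cdkn1c) and 3 lower (Peg10, Sgce and Gnas), which is 11.9% against 22.5% of all tested genes (11.9% higher and 10.6% lower). Most differences were small, and 27 of 42 log2 fold changes were smaller than 0.2 in size. Of the 42 tested members 25 lay below 0, against 51.9% of all tested genes.

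Without control replicate 2, edgeR called 2 of 43 members, Nnat and Gnas, both lower, against 4.16% of all genes (2.33% higher and 1.82% lower). Nap1l5 also passed the filter in this fit, which keeps only control replicates 1 and 3. These controls had a mean chi-square per gene of 2.97 between their counts. For control replicate 2 it was 43.3 against control replicate 1 and 34.5 against control replicate 3. Among pyruvate libraries it was 4.09 between replicates 2 and 3. For pyruvate replicate 1 it was 14.8 against pyruvate replicate 2 and 11.9 against pyruvate replicate 3. With pyruvate replicate 1 left out instead, edgeR called 0 of 42 members and 1 gene among all tested. In these bulk libraries fewer cells of a type and less RNA per cell cannot be told apart.

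**Figure D2:**
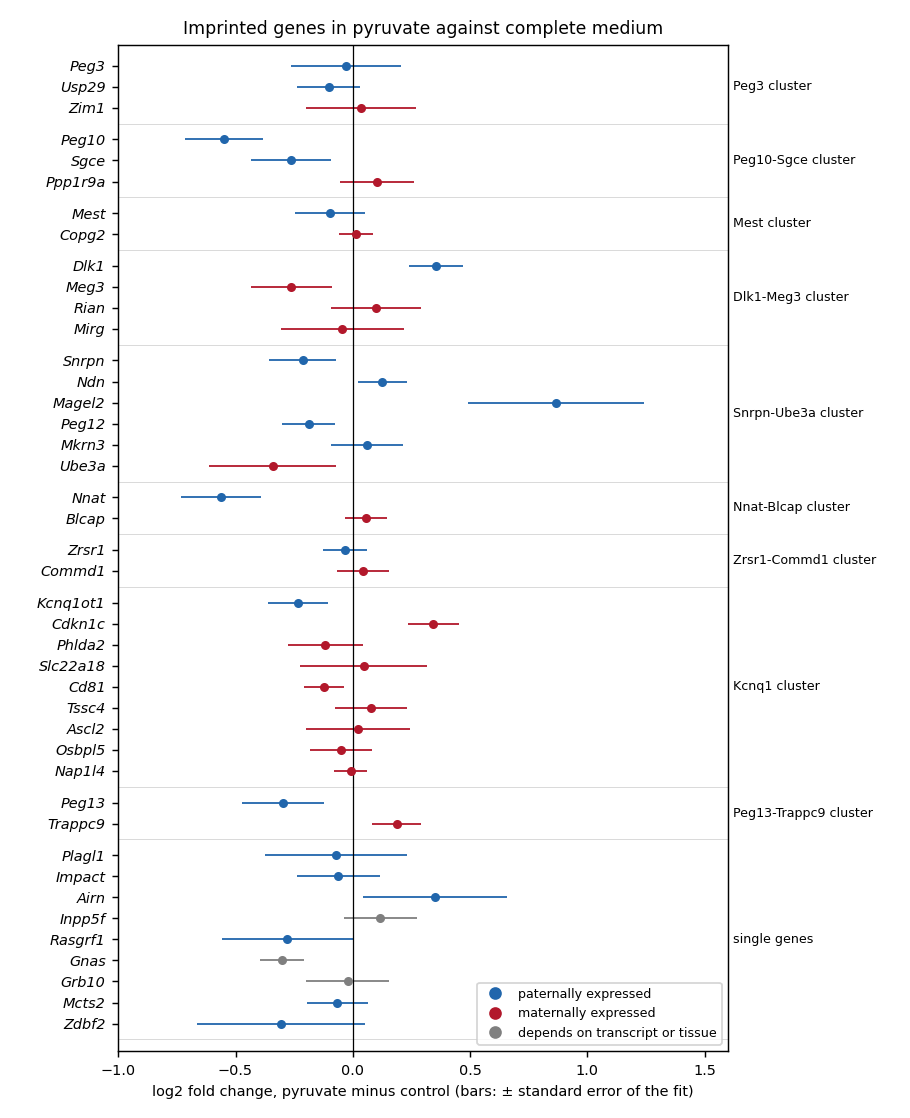
Log2 fold change of pyruvate minus control for the 42 tested imprinted genes, by cluster and coloured by the parental copy expressed in somatic tissue. Bars are standard errors of the edgeR fit with 3 libraries per group, and most members lie within 0.2 of zero, with Nnat and Peg10 lowest and Magel2 highest.

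Genes expressed from the paternal copy had 21 of 23 members tested, 5 above and 16 below a log2 fold change of 0. Their median was -0.098, while the median over all tested genes was -0.010. In single libraries the class median deviated from the gene means by 0.14 in control replicate 2 and by -0.19 in pyruvate replicate 1, the ends of its range. Without control replicate 2 the class had 10 members above and 12 below 0, with a median of -0.052, now with Nap1l5 among them. Genes expressed from the maternal copy had 18 of 19 members tested, 11 above and 7 below 0, with a median of 0.029. The median was 0.035 over the 7 tested widely imprinted genes and 0.023 over the 11 of limited imprinting. For the class it was -0.011 without pyruvate replicate 1.

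Nnat, which encodes neuronatin, a small membrane proteolipid of the endoplasmic reticulum, had the lowest fold change of the tested members. It lies on chromosome 2 (157560078 to 157562522, GRCm38) inside an intron of Blcap. Nnat stood at 64.3, 46.3 and 58.7 CPM in control replicates 1 to 3 and at 47.7, 33.3 and 33.6 CPM in pyruvate replicates 1 to 3. The groups met only where control replicate 2 fell below pyruvate replicate 1. The means were 56.4 ± 9.18 and 38.2 ± 8.21 CPM (SD, n = 3 per group), a log2 fold change of -0.56 (SE 0.17, adjusted p = 0.208 by edgeR). Without control replicate 2, the lowest control library for Nnat, its log2 fold change was -0.69 (SE 0.14), with an adjusted p of 0.0340 by edgeR. Its adjusted p ran from 0.0288 to 0.456 over 12 alternatives, and its direction was the same in all of them. Blcap, the maternally expressed host, did not follow, at 51.1, 45.5 and 53.7 CPM in control and 53.8, 51.1 and 51.2 CPM in pyruvate libraries (log2 0.055). Within each library the log2 ratio of Nnat to Blcap was 0.026 to 0.33 in control and -0.62 to -0.17 in pyruvate, so the ratios of the groups did not overlap. Ratios were taken for 8 pairs of neighbours, chosen with their values known, and 4 of them did not overlap between groups. For Peg10 to Sgce, 1 of these 4, the log2 ratio was 4.22 ± 0.13 in control and 3.95 ± 0.039 in pyruvate libraries (SD, n = 3). The ratios of Peg3 to Usp29, Mest to Copg2, Zrsr1 to Commd1 and Peg13 to Trappc9 overlapped. The share of other gene pairs without overlap was not computed, so nothing is read from these counts.

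Nnat starts back to back with a short Blcap transcript that GENCODE M21 places at 157560007, away from the RefSeq start of Blcap. Peg3 and Usp29 also start back to back. The bases between these start sites are shown because in each stretch transcripts of 2 members run away from each other. They come from the RefSeq promoter windows (GRCm38.p6), plus strand, 5′ to 3′, with CG in capitals, the dinucleotide at which imprints are methylated. The Blcap-Nnat stretch (chr2:157560008-157560077) has 70 bases and 4 CG, and the Peg3-Usp29 stretch (chr7:6730432-6730577) has 146 bases and 5 CG.
Blcap-Nnat: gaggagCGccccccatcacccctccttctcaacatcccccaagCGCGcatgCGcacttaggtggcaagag
Peg3-Usp29: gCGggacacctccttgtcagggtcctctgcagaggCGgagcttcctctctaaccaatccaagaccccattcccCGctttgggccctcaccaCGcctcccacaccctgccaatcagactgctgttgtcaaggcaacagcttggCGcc
Of the 45 members 36 had such a window, 51 windows in all, each holding 250 bases before and 50 after a start. Their median was 16 CG per window, against 7 over all 32851 windows. The hexamer TGCCGC, which the imprint-keeping factor ZFP57 recognises when methylated, was present on either strand in 14 of 51 member windows (27.5%) and in 11.6% of all windows. The hexamer itself holds a CG, and the member windows are richer in CG. No share over windows of like CG content was computed, so nothing is read from the difference. Windows of a gene can overlap, methylation was not measured, and a match is only a match of letters.

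Peg3, a zinc finger protein, and Usp29, a ubiquitin protease, are transcribed away from each other across that stretch. Peg3 stood at 34.1, 67.1 and 37.6 CPM in control and at 42.1, 49.8 and 44.3 CPM in pyruvate libraries. Control replicate 2 was the highest library, and the other controls lay below every pyruvate library. Peg3's log2 fold change was -0.030 with all libraries and 0.34 without control replicate 2 (SE 0.095, adjusted p = 0.0744 by edgeR). Usp29 stood between 4.18 and 4.78 CPM in control libraries, with no high value in control replicate 2, and at 4.21 ± 0.26 CPM in pyruvate libraries (SD, n = 3). The maternally expressed neighbour Zim1 ranged from 1.38 to 2.16 CPM.

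Peg10, derived from a retrotransposon and required for placenta formation, starts 98 bases from Sgce, which encodes epsilon-sarcoglycan, on the opposite strand (Peg10 at chromosome 6, 4747306 to 4760517; Sgce at 4674350 to 4747207). Peg10 stood at 54.3, 82.3 and 53.3 CPM in control replicates and at 40.7, 44.3 and 45.1 CPM in pyruvate replicates. Every pyruvate library lay below every control, with control replicate 2 far above the rest. The log2 fold change was -0.55 (SE 0.17, adjusted p = 0.208 by edgeR), and -0.31 without control replicate 2 (SE 0.077, adjusted p = 0.0519). Sgce stood at 3.08, 3.97 and 3.01 CPM in control and at 2.55, 2.91 and 2.95 CPM in pyruvate libraries, again without overlap but with a narrow gap. Its log2 fold change was -0.26 (SE 0.17, adjusted p = 0.525 by edgeR), and -0.12 without control replicate 2. Ppp1r9a, the maternally expressed neighbour that encodes the actin-binding neurabin, did not share this order. It ranged from 15.5 to 23.5 CPM in control and from 19.3 to 21.7 CPM in pyruvate libraries.

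**Figure D3:**
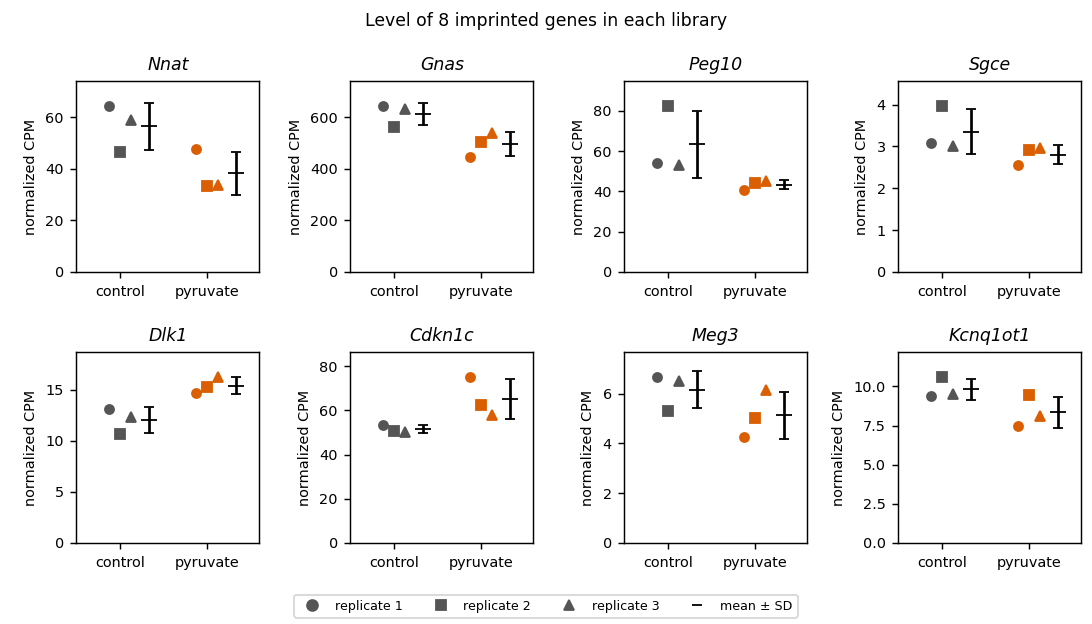
Normalized CPM of 8 imprinted genes in each library (symbols by replicate) with mean ± SD of 3 libraries per group, on axes that start at 0. Pyruvate libraries lie below all controls for Gnas, Peg10 and Sgce and above them for Dlk1 and Cdkn1c, while the groups overlap for Nnat, Meg3 and Kcnq1ot1.

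In the Dlk1-Meg3 cluster on chromosome 12 the paternal copy gives the growth regulator Dlk1, and the maternal copy gives the noncoding RNAs Meg3, Rian and Mirg, hosts of small RNAs. Dlk1 (109452823 to 109463336) stood at 13.2, 10.7 and 12.4 CPM in control and at 14.7, 15.3 and 16.3 CPM in pyruvate libraries. All pyruvate libraries were higher than all controls. The log2 fold change was 0.35 (SE 0.11, adjusted p = 0.223 by edgeR), and 0.27 without control replicate 2 (adjusted p = 0.175). Meg3 stood at 6.67, 5.30 and 6.49 CPM in control and between 4.26 and 6.14 CPM in pyruvate libraries, with overlap. Its log2 fold change was -0.26 (SE 0.17, adjusted p = 0.524 by edgeR), and ran from -0.41 to -0.14 when single libraries were left out, with the smallest size without pyruvate replicate 1. Within libraries the log2 ratio of Dlk1 to Meg3 was 0.93 to 1.01 in control and 1.41 to 1.78 in pyruvate, a pair chosen after its values were seen. Rian and Mirg had log2 fold changes of 0.098 and -0.044. Rtl1, a retrotransposon-derived gene of the same cluster, had 0 counts in every library, which allows at most 0.116 to 0.143 CPM.

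The Snrpn-Ube3a cluster on chromosome 7 held both larger and smaller differences, none of them called. Ndn, which encodes the growth suppressor necdin and was the highest of the cluster per kb, stood at 56.7, 46.7 and 56.0 CPM in control and 62.3, 56.9 and 54.6 CPM in pyruvate libraries, with overlap (log2 0.13, and 0.041 without control replicate 2). Magel2, a cofactor of a ubiquitin ligase, had the highest log2 fold change of the tested members, 0.87 (SE 0.37, adjusted p = 0.340 by edgeR). It rests on few reads, 6 to 16 counts per control library and 15 to 25 per pyruvate library. Snrpn, Peg12 and Mkrn3 lay between -0.21 and 0.060 on the log2 scale. The exons of Snrpn overlap those of Snurf on the same strand, so its count is uncertain. Ube3a, a ubiquitin ligase expressed from the maternal copy in neurons, stood at 63.7, 128 and 65.7 CPM in control and 55.5, 81.0 and 66.6 CPM in pyruvate libraries. Control replicate 2 alone was high, and the log2 fold change turned from -0.34 to 0.066 without it. Its exons overlap Snhg14 on the opposite strand.

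Among the remaining paternally expressed genes, Mest, a hydrolase-like protein, stood at 95.6, 103 and 91.0 CPM in control and 68.1, 100.2 and 103 CPM in pyruvate libraries. Pyruvate replicate 1 alone was low, and the log2 fold change was -0.098. Copg2, a coat protein of transport vesicles whose exons overlap Mest on the opposite strand, was nearly level, at 130, 142 and 134 CPM in control and 141, 137 and 132 CPM in pyruvate libraries (log2 0.014). Zdbf2, a zinc finger gene named after its values were seen, stood at 31.6, 85.5 and 36.8 CPM in control and 30.8, 46.6 and 47.3 CPM in pyruvate libraries. Its log2 fold change was -0.31 with all libraries and 0.28 without control replicate 2 (adjusted p = 0.735 and 0.373 by edgeR). Plagl1, Impact, Airn, Rasgrf1, Mcts2 and Peg13 lay between -0.30 and 0.35, with adjusted p from 0.479 to 0.935. Peg13 lies in an intron of Trappc9, which encodes a subunit of a vesicle tethering complex. Trappc9 stood at 32.9, 26.8 and 29.8 CPM in control and 36.7, 32.4 and 32.8 CPM in pyruvate libraries (log2 0.19, and 0.12 without control replicate 2), with control replicate 1 above the lowest pyruvate library.

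Zrsr1, a splicing factor gene copied into the Commd1 gene, shares 412 exonic bases with it on the opposite strand, so both counts are uncertain. Zrsr1 stood at 29.3, 29.4 and 32.1 CPM in control and 27.0, 30.4 and 31.3 CPM in pyruvate libraries. Commd1, a regulator of copper handling, stood at 56.7, 45.7 and 58.5 CPM and at 58.1, 55.3 and 52.5 CPM. Their log2 fold changes were -0.034 and 0.045, and the groups overlapped for both.

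The Kcnq1 cluster on chromosome 7 has 10 members, of which 9 were tested, 4 above and 5 below 0. Its noncoding RNA Kcnq1ot1, made from the paternal copy, silences neighbouring genes on the same chromosome in somatic tissue. Kcnq1ot1 stood at 9.38, 10.6 and 9.50 CPM in control and 7.49, 9.43 and 8.14 CPM in pyruvate libraries, with overlap by a narrow margin. Its log2 fold change was -0.24 (SE 0.13, adjusted p = 0.444 by edgeR), and -0.16 without pyruvate replicate 1. Cdkn1c (143458339 to 143461050), which encodes the cell cycle inhibitor p57, stood at 53.4, 50.5 and 50.1 CPM in control and 75.2, 62.3 and 58.1 CPM in pyruvate libraries. All pyruvate libraries were higher than all controls, with pyruvate replicate 1 highest. The log2 fold change was 0.34 (SE 0.11, adjusted p = 0.219 by edgeR), and 0.33 without control replicate 2 (adjusted p = 0.107). Without pyruvate replicate 1 Cdkn1c had a log2 fold change of 0.24 (SE 0.092, adjusted p = 0.490 by edgeR). Its exons overlap an antisense gene model, so its count is uncertain. Within libraries the log2 ratio of Cdkn1c to Kcnq1ot1 was 2.25 to 2.51 in control and 2.73 to 3.33 in pyruvate, also a pair chosen after its values were seen.

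The other tested members of that cluster had smaller log2 fold changes than Cdkn1c. Nap1l4, a histone chaperone, was the steadiest, at 364, 334 and 368 CPM in control and 365, 343 and 351 CPM in pyruvate libraries (log2 -0.0091). Phlda2, Slc22a18, Cd81, Tssc4, Ascl2 and Osbpl5 lay between -0.12 and 0.076, with adjusted p from 0.555 to 0.970. Kcnq1, a potassium channel subunit, had 1 to 2 counts per control library and 4 to 5 per pyruvate library. It was close to the floor and did not pass the filter on low counts.

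Gnas is the member with the most complex imprinting, since its maternal, paternal and biallelic transcripts encode different products, among them the stimulatory G protein alpha subunit. The deposited count adds all of them. Gnas (chromosome 2, 174284320 to 174346744) stood at 644, 563 and 633 CPM in control and 446, 505 and 540 CPM in pyruvate libraries. Every pyruvate library lay below every control, with pyruvate replicate 1 lowest. The means were 613 ± 43.9 and 497 ± 47.3 CPM (SD, n = 3 per group), a log2 fold change of -0.30 (SE 0.093, adjusted p = 0.212 by edgeR). Without control replicate 2, its lowest control library, Gnas had a log2 fold change of -0.36 (SE 0.076) and an adjusted p of 0.0318 by edgeR. Without pyruvate replicate 1 they were -0.23 (SE 0.094) and 0.520, the highest adjusted p over 12 alternatives. Gnas kept the same direction in all of them. Its exons overlap 2 genes on the opposite strand, among them Nespas, the paternal antisense RNA, which stood at 4.69 to 5.35 CPM in control and 3.55 to 4.85 CPM in pyruvate libraries.

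Inpp5f, a phosphoinositide phosphatase whose imprinting depends on the transcript, stood between 82.6 and 124 CPM in control and between 94.8 and 116 CPM in pyruvate libraries (log2 0.12). Grb10, an adaptor that restrains insulin signalling, stood between 4.49 and 6.01 and between 4.42 and 6.27 CPM (log2 -0.022). Nap1l5, a paternally expressed retrogene, had 4 to 16 counts per library and did not pass the filter on low counts with all libraries.

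**Figure D4:**
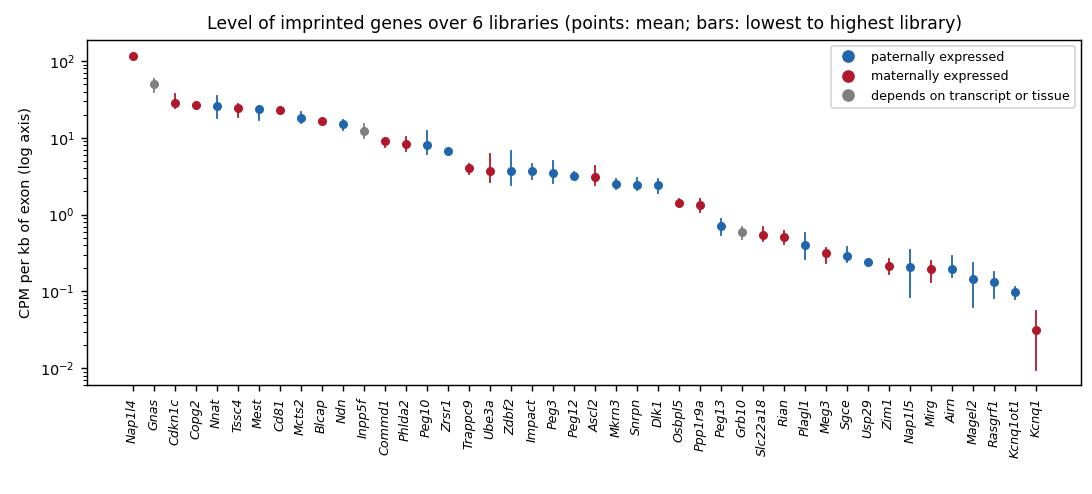
Level of 44 imprinted genes in CPM per kb of exon (log axis), ordered by the mean over 6 libraries, with bars from the lowest to the highest library and colours for the parental copy expressed in somatic tissue. Nap1l4 and Gnas stand alone at the top, and Rtl1, at 0, is not drawn.

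Levels between members were compared per kb of exon. Nap1l4 was highest at 115 CPM per kb (108 to 119 over 6 libraries), and Gnas followed at 49.6 (39.9 to 57.6), each apart from its neighbours in the order. Cdkn1c, Copg2, Nnat, Tssc4, Mest and Cd81 followed at 28.6 to 23.3, and each of them overlapped the next. Dlk1 was at 2.43, Peg3 at 3.44, Meg3 at 0.312 and Kcnq1ot1 at 0.098 CPM per kb. In CPM, 22 of 42 tested members had a mean of at least 10, 17 between 1 and 10, and 3 (Magel2, Airn and Slc22a18) below 1.

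A further 35 genes reported as imprinted were listed beside the members, of which 33 were in the table and 19 tested. None passed edgeR's test over all genes with all libraries (0 of 19), with 10 above and 9 below 0 and a median of 0.0095. The lowest p-values were those of Begain, a synaptic protein gene next to Dlk1, and Dhcr7, the last enzyme of cholesterol synthesis. Begain stood at 21.6, 17.5 and 20.1 CPM in control and 33.2, 28.1 and 28.5 CPM in pyruvate libraries, higher in every pyruvate library. Its log2 fold change was 0.60 (SE 0.11, adjusted p = 0.110 by edgeR). Dhcr7 stood at 116, 102 and 110 CPM in control and 174, 149 and 138 CPM in pyruvate libraries (log2 0.49, adjusted p = 0.124 by edgeR). Without control replicate 2 both were called higher, the only 2 called of 19, where 2.33% of all genes were called higher. Their log2 fold changes were then smaller, at 0.52 and 0.44 (adjusted p = 0.0254 and 0.0325 by edgeR).

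Genes that write, read or protect imprints were listed together with Tet1, Tet2 and Tet3, which act in removing DNA methylation. None of them was called with all libraries (0 of 15 by edgeR), with 4 above and 11 below 0. Ctcfl, a germ cell relative of the insulator protein CTCF, stood at 17.9, 21.6 and 19.0 CPM in control and 12.8, 13.6 and 15.1 CPM in pyruvate libraries (log2 -0.50, adjusted p = 0.136 by edgeR). Dppa3, which protects methylation in the early embryo, stood at 2.71, 2.67 and 2.24 CPM in control and 6.06, 5.31 and 3.41 CPM in pyruvate libraries (log2 0.96, adjusted p = 0.149). Without control replicate 2 edgeR called 1 of these 15, against 1.82% of all genes called lower. It was Uhrf1, which brings the maintenance methyltransferase to DNA (log2 -0.32, adjusted p = 0.0379). With all libraries Uhrf1 had a log2 fold change of -0.30 (adjusted p = 0.175 by edgeR).

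Fibroblast and mesenchymal markers, the cells of a possible feeder layer, had 16 of 18 genes tested, 8 above and 8 below 0, and none was called by edgeR with all libraries. Leaving out control replicate 2 gave 3 calls among the 16, against 4.16% of all genes, with Col5a1 and Acta2 higher and Thy1 lower. Thy1 is also carried by spermatogonial stem cells, so it does not mark feeder cells alone. The summed level of the 18 markers was 655 to 733 CPM in control and 704 to 746 CPM in pyruvate libraries. Most of it came from Fn1 and Col5a1, while Dcn and Lum were at 0.12 to 0.68 CPM. Sertoli cell markers summed to 25.7 to 29.3 and 24.5 to 29.7 CPM, with Fshr at 0. Leydig cell markers summed to 2.82 to 4.01 and 2.64 to 2.86 CPM, with Hsd3b1, Insl3 and Lhcgr at 0. Endothelial markers summed to 24.6 to 25.7 and 19.8 to 28.2 CPM. Macrophage and immune markers summed to 5.15 to 7.93 and 5.77 to 7.41 CPM, with Adgre1 at 0. The part of these cells in the levels of the imprinted genes was not tested.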

How the data were processed

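RNA sequencing libraries from 6 germline stem cell samples were analysed, 3 in complete medium and 3 in pyruvate medium. The values are raw whole-number gene counts as deposited by the authors, not normalized. Per the submitters' processing notes, the tools included HTSeq 2.0.5, STAR 2.7.11a, cutadapt 4.6 and bcl2fastq 2.20, with mm10 as the genome. The library kit is stranded per the labels' protocols, while neither the annotation release nor how strand was treated in counting is stated there, so antisense neighbours may not be told apart. A further 3 columns matched no sample and were not used.

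Genes were filtered in edgeR 4.0.16 (R 4.3.3) by filterByExpr at a minimum count of 10, and 14912 remained. TMM factors, the robust quasi-likelihood test without covariates and Benjamini-Hochberg adjustment over all of them at 0.05 followed. Each standard error is the size of the log2 fold change over the root of its F statistic. Fold changes are pyruvate minus control. Gene positions, exon lengths and exon overlaps are from GENCODE M21 (GRCm38). The fit was also run on simulated counts with the same dispersion set for every gene and no outlying library. That run therefore does not vouch for calls in these libraries. Other settings tried were each library left out, a block for the replicate number, the DESeq2 1.42.0 test and its size factors, scaling by library totals, and filters set at none or at 5 CPM in at least 3 libraries.

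The members and lists were chosen with earlier results of these data known. Values per library are given for tested members of at least 1 CPM whose groups do not overlap, that lead their cluster per kb, or that share exons with another member. From the lists of further imprinted genes and of imprint genes the 2 genes of lowest p are named. Uhrf1, Col5a1, Acta2 and Thy1 were named for their calls without control replicate 2, after their values were seen. Meg3, Ube3a, Zdbf2, Magel2, Blcap, Usp29 and Nespas were added after their values were seen.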

Additional observations from a re-analysis of the deposited data

How the results depend on the processing

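The count of called imprinted genes was 0 under DESeq2's size factors, library totals, no filter, the filter of 5 CPM in 3 libraries and DESeq2, 1 with the replicate block (Nnat, log2 -0.57, adjusted p = 0.0288 by edgeR), and 0 to 2 when each library was left out in turn. The highest, 2, came without control replicate 2. Over all genes the count of 8 became 14 with library totals, 83 with no filter, 317 with DESeq2, 265 with the replicate block, and 0 to 625 when each library was left out, with 625 again without control replicate 2. The cause was not tested. Same-numbered libraries of the 2 groups correlated in their deviations from the group means at 0.31, 0.31 and -0.073 for replicates 1, 2 and 3. Replicates 1 and 2 correlated best with their own number, and replicate 3 did not. Since the match did not hold for every replicate, the numbers were not taken to pair the samples. The median of paternally expressed members stayed between -0.17 and -0.052, and that of maternally expressed members ran from -0.011 to 0.063. Of the 15 members that met the rule for values per library, 9 kept their direction under every alternative. Of those named outside that rule, Ube3a, Zdbf2 and Blcap each changed direction under 1 alternative, while Meg3, Magel2 and Usp29 did not. Peg3 turned to 0.0083 with library totals and 0.028 with the replicate block, and Nap1l4 to 0.021 with library totals. With single libraries left out, log2 fold changes ran from -0.21 to 0.34 for Peg3, -0.052 to 0.020 for Nap1l4, -0.014 to 0.051 for Copg2, -0.20 to 0.075 for Mest, -0.059 to 0.12 for Commd1 and -0.077 to 0.033 for Zrsr1. Depth limits Magel2 as well as Rtl1, Kcnq1 and Nap1l5, which did not pass the filter on low counts with all libraries. Nap1l5 was fitted under 5 alternatives and Kcnq1 under 1, and neither was called.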
